A study of Mus musculus with 10 samples.

Results

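The genes described here encode the collagens and a set of glycoproteins of the extracellular matrix. They were chosen by symbol, as all protein-coding genes of GENCODE M21 named as a collagen chain (44 genes) plus 17 named glycoprotein genes: fibronectin (Fn1), periostin (Postn), Sparc, 7 laminin chains, both nidogens, fibrillin 1, thrombospondin 1, tenascin C, versican and perlecan (Hspg2). All 61 were present among the 55471 genes counted. The libraries were made from total RNA of primary microglia, the macrophages that reside in brain tissue, taken from wild-type mice and cultured in medium with serum. In 5 libraries the cells had received control gapmers, and in 5 they had received gapmers directed at the long noncoding RNA 3222401L13Rik. A gapmer is a short antisense oligonucleotide that recruits RNase H to the RNA it binds. The labels used here give no age, sex or strain of the mice and do not say whether replicates were separate cultures, so every p-value below measures the spread between these libraries, which may be technical.

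Matrix is laid down as fibrils and as sheets. Fibrillar collagens such as types I and III form the ropes of connective tissue, and fibril-associated and type VI collagens decorate or link them. Basement membranes are sheets made of a laminin network and a type IV collagen network, bridged by nidogen and perlecan. In the brain they surround blood vessels and line the pia, where fibroblasts, mural cells, endothelium and astrocytes make most of them. Macrophages are known to make fibronectin, and they bind matrix through integrins, CD44 and CD36.

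Values with ± are means and SD over the 5 libraries of a group unless another n is given, and single measures were compared between groups by two-sided exact permutation. In units of 1000000 reads, library totals averaged 5.11 ± 0.489 (control) and 6.20 ± 0.439 (knockdown-labelled, exact permutation p = 0.0159). The targeted RNA had 28 to 34 reads per control library and 22 to 38 reads per library of the second group. Per 1000000 reads this came to 6.06 ± 0.566 and 4.71 ± 1.01, lower in the second group with overlapping libraries (exact permutation p = 0.0476 on log2 values), while the edgeR fit described later gave a log2 fold change of -0.17 (SE 0.23, adjusted p = 0.5415). The background level defined next covered 48.0% of its reads, and above that level 2.29 ± 0.705 and 3.09 ± 0.9753 per 1000000 were left (exact permutation p = 0.151). Since the direction depended on the measure, the second group is called knockdown-labelled throughout. The libraries also differed in reads of genes that microglia are not known to use. The 1135 olfactory receptor genes had 0.599 ± 0.147 reads per kilobase of exon per 1000000 reads (RPKM) with the control gapmers and 0.257 ± 0.0674 RPKM with the knockdown label (exact permutation p = 0.00794, which 5 against 5 cannot go below). Within sequencing lane 7 the means were 0.639 and 0.241 RPKM (n = 3 each), and within lane 8 they were 0.539 and 0.280 RPKM (n = 2 each).

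That density was used as the background level. For each gene, the olfactory receptor density of a library times the gene's exon length gave the reads expected from background, and their sum over the 10 libraries divided by the reads counted is called the background share. A share near 100% means that the gene was read no more densely than an olfactory receptor gene. Of the 61 genes, 10 had a share under 20% (16.4%), against 53.2% of the 19263 genes that were tested. They were 3 of the 44 collagen genes and 7 of the 17 glycoprotein genes. Another 29 had a share of 20 to 50%, and 22 had a share over 50%. The value of 20% is a chosen line. Just inside it lay Nid2 (14.9%) and Sparc (16.5%), and just outside it lay Col11a2 (22.8%), Col9a3 (23.4%) and Col6a1 (24.0%). In the control libraries alone Nid2 was at 21.2%, Sparc at 21.1% and Col11a2 at 26.6%. In the knockdown-labelled libraries alone they were at 9.52%, 11.7% and 17.8%, so near the line the choice depended on the group. Of the 61 genes, 1 had a share under 5% and 7 a share of 5 to 20% in the control libraries. In the knockdown-labelled libraries these were 5 and 6.

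The 10 genes were led by fibronectin. Fn1, a dimeric glycoprotein that cells bind through integrins, was read at 38.4 ± 1.78 RPKM (control) and 36.4 ± 2.97 RPKM (knockdown-labelled), and its background share was 1.09%. It alone supplied 32.2 ± 2.64% of the reads of all 61 genes in control libraries and 40.1 ± 2.32% in the others. The next levels were those of laminin chains. Lamc1, the common gamma chain, was at 10.2 ± 0.516 and 9.70 ± 0.631 RPKM in the same order of groups. Lama3, an alpha chain known from epithelial basement membranes, was at 9.84 ± 0.785 and 8.44 ± 0.458 RPKM. Lamb2, a beta chain found in vessel and synaptic laminins, was at 8.56 ± 0.791 and 7.94 ± 1.22 RPKM. In the control libraries Lamc1 and Lama3 overlapped, and the highest Lamb2 value (9.17 RPKM) lay just below the lowest Lama3 value (9.27 RPKM).

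Lower levels were measured for 6 genes. Col23a1, a membrane-spanning collagen, was at 6.64 ± 0.740 RPKM (control) and 6.82 ± 0.656 RPKM (knockdown-labelled). Postn, a matricellular protein that binds collagen and integrins, was at 3.54 ± 0.575 and 4.82 ± 0.607 RPKM. Col4a5, a chain of the type IV network, was at 4.01 ± 0.313 and 3.86 ± 0.358 RPKM. Col18a1, the basement membrane collagen from which endostatin is cut, was at 4.01 ± 0.667 and 3.07 ± 0.0967 RPKM. Nid2, the laminin-binding linker, was at 2.80 ± 0.476 and 2.68 ± 0.507 RPKM. Sparc, a collagen-binding glycoprotein, was at 2.80 ± 0.775 and 2.16 ± 0.221 RPKM. The last 2 genes stood closest to background: Sparc was above the 99th percentile of single olfactory receptor genes in 9 of the 10 libraries, while each of the other 9 genes was above it in all 10.

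**Figure D1:**
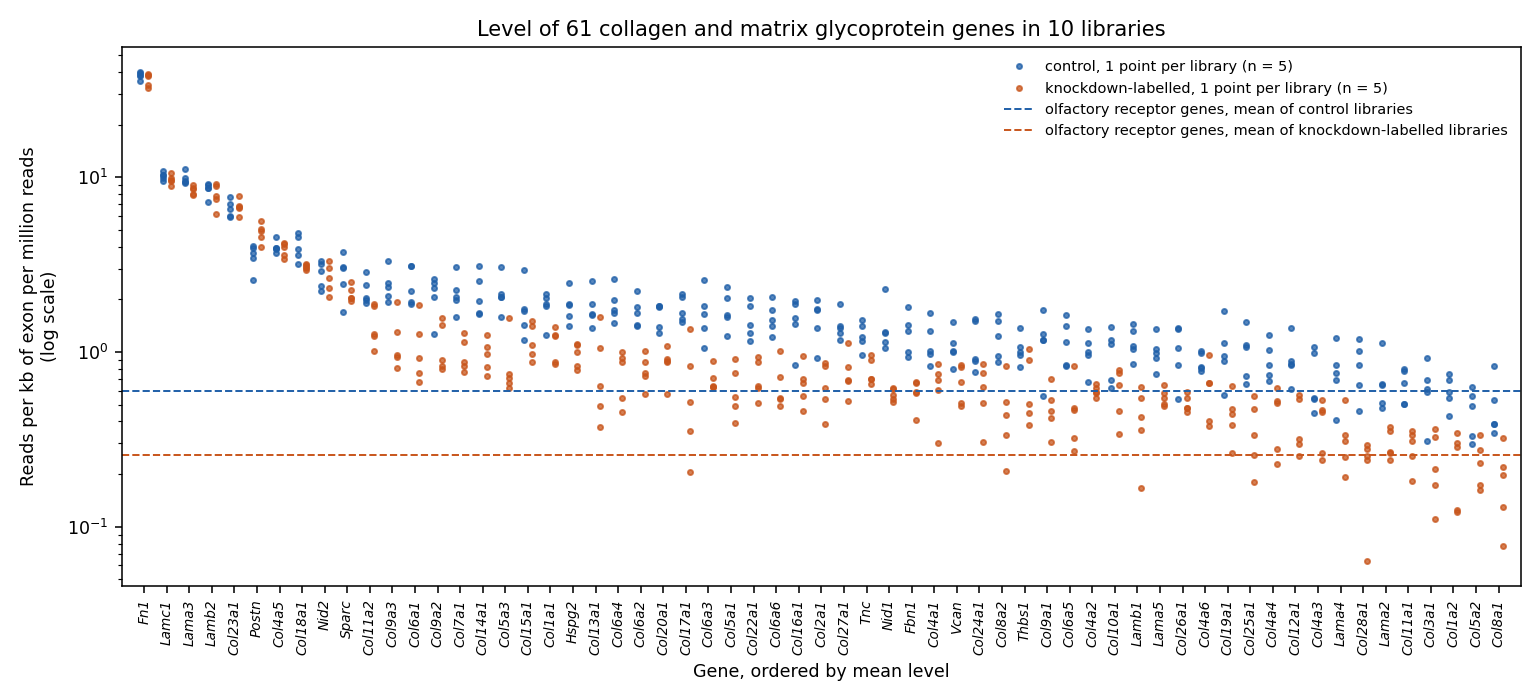
Level of each of the 61 genes (RPKM, log scale, genes ordered by mean level), with 1 point per library, control (n = 5) and knockdown-labelled (n = 5) side by side, and dashed lines at the mean olfactory receptor level of each group. Fn1 stands at 38.4 and 36.4 RPKM, 9 genes follow between 2.16 and 10.2 RPKM, and the remaining 51 lie in a band around and above the dashed lines, with the control points mostly above the knockdown-labelled ones.

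The other 51 genes formed a band of lower levels, from 0.798 times the background level (Col8a1) to 4.40 times (Col11a2), with a median of 2.13 times. Their mean levels ran from 0.461 RPKM (Col5a2) to 2.46 RPKM (Col6a1) in the control libraries and from 0.188 RPKM (Col8a1) to 1.44 RPKM (Col11a2) in the knockdown-labelled ones, and 40 of the 61 genes were above the olfactory 99th percentile in no library. By family, 0 of 11 fibrillar chains, 0 of 9 fibril-associated chains, 0 of 6 type VI chains and 0 of 3 short chain collagens had a share under 20%. Among the chains of type I collagen, Col1a1 had a share of 28.3% and Col1a2 of 103%. Col3a1, the chain of type III collagen, had a share of 99.3%. The shares of the whole band ran up to 122% (Col5a2) and 125% (Col8a1). These shares count the exons of all annotated transcripts. Next, the expected reads were taken over the exons of protein-coding transcripts alone. The counted reads were left unchanged, so no share could rise. That put Col1a1 at 25.6%, Col1a2 at 45.7% and Col3a1 at 56.3%. On that length 14 of the 61 genes had a share over 50%, 7 a share of 5 to 20% and 5 a share under 5%.

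The base composition of the genes moved with these shares. The median GC content was 53.5% over the 61 genes and 39.0% over the olfactory receptor genes. Among the 51 genes of the band, Spearman's rho of share with GC content was -0.63, a description across genes that share libraries. When the density came from the 50 genes nearest in GC among receptor, keratin and defensin classes, 7 genes stayed under 20% and 47 were over 50%. Fn1 (2.20%), Lamc1 (8.16%), Lama3 (8.58%), Lamb2 (9.99%), Postn (12.9%), Col23a1 (13%) and Col4a5 (19.3%) stayed under 20%. Col18a1 (23.5%), Nid2 (31.5%) and Sparc (32.0%) did not, and Col1a1 was at 57.4%. The match was incomplete at high GC. For Col18a1 (60.8% GC), Col1a1 (58.9% GC) and Lamb2 (58.8% GC) the 50 nearest genes had a median of 57.1% GC. With the vomeronasal receptor density 20 genes were under 20%, and with the keratin density 5 were.

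Laminin is assembled from an alpha, a beta and a gamma chain. A single chain of each kind had a share under the chosen line of 20%: Lama3, Lamb2 and Lamc1. Lama2 (87.5%), Lama4 (77.7%), Lama5 (53.8%) and Lamb1 (54.7%) had shares over 50%. With expected reads over the exons of protein-coding transcripts alone and counted reads unchanged, these 4 were at 52.6%, 38.95%, 53.8% and 32.2%. Lama1 (53.6%), Lamb3 (42.1%) and Lamc3 (41.5%), which were outside the 61 genes, also lay above 20%. Of the basement membrane linkers, Nid2 was the lowest in share (14.9%), with Hspg2 at 30.1% and Nid1 at 43.1%. The type IV genes are arranged as head-to-head pairs (GRCm38). Col4a1 and Col4a2 start on chromosome 8 with their first bases overlapping, the starts of Col4a4 and Col4a3 lie 72 bases apart on chromosome 1, and those of Col4a6 and Col4a5 lie 1309 bases apart on chromosome X. Of the 6 chains only Col4a5 had a share under 20%, and its neighbour Col4a6 had a share of 55.1%.

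Promoters were compared for Postn, higher in the knockdown-labelled libraries, and for Col4a5, the type IV chain under a 20% share. The third was that of Col1a2, a fibrillar chain with a share of 103%. The sequences are from RefSeq (GRCm38.p6, plus strand) and hold the 250 bases before each annotated start, with matches to GAGGAA, the core recognised by the myeloid factor PU.1, and to TATAAA, the TATA box, in capitals on either strand.
Postn, chr3:54360857-54361106: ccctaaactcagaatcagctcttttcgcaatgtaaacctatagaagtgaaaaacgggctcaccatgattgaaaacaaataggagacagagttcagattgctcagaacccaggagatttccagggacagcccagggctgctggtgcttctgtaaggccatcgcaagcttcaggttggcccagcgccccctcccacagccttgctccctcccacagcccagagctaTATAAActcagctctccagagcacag
Col4a5, chrX:141475169-141475418: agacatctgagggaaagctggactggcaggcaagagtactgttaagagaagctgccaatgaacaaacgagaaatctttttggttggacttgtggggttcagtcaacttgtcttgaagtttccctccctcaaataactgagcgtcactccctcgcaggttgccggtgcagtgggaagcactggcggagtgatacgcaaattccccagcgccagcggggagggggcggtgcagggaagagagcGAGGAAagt
Col1a2, chr6:4505368-4505617: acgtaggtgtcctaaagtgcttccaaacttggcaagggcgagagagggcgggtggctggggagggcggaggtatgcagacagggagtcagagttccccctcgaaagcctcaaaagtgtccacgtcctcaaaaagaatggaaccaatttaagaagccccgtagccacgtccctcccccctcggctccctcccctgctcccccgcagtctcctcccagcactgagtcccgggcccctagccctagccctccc
The TATAAA of Postn begins at base 225 of its window, and the GAGGAA of Col4a5 at base 242. In the 50 bases after the start, which are not printed, Postn holds GAGGAA on the minus strand at base 291 and Col4a5 holds it again at base 271. A second Postn promoter, whose window starts at base 54359017, holds neither motif. In windows of 300 bases (250 before and 50 after the start), 51 promoters of 46 of the 61 genes were matched. GAGGAA stood on either strand in 21 of the 51, against 28.3% of all 32851 promoters, and TATAAA in 8 of the 51, against 13.6%. The longer GAGGAAGT, which contains GAGGAA, stood in 0 of the 51, against 3.20% of all promoters. These counts describe letters in the windows and say nothing of binding.

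The comparison of the knockdown-labelled with the control libraries asked which matrix genes moved with the gapmer label. Counts were scaled to counts per 1000000 reads (CPM) with TMM factors. The quasi-likelihood test of edgeR was used, and a gene was called at a Benjamini-Hochberg adjusted p under 0.05 over all 19263 genes tested. All 61 genes entered the test. Among them 2 were called higher, Postn and Col23a1, and 48 lower, while 22.9% of all tested genes were called higher and 31.3% lower. Rises were 42.3% of all calls with this scaling, 19.0% with upper-quartile scaling, 11.5% with library totals and 3.73% with TMM factors from genes under a 5% share, and all genes together had medians of -0.10, -0.24, -0.28 and -0.34 (log2) in that order. The calls followed the background share. All 48 falls were among the 51 genes with a share of at least 20%, and of the 9014 tested genes with such a share 62.6% were called lower and 0.122% higher. Both rises were among the 10 genes under 20%, and of the 10249 tested genes under that share 43.0% were called higher and 3.80% lower. The libraries of the groups did not overlap for Postn, higher, and for 23 genes, lower, against 12.6% and 14.2% of all tested genes.

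**Figure D2:**
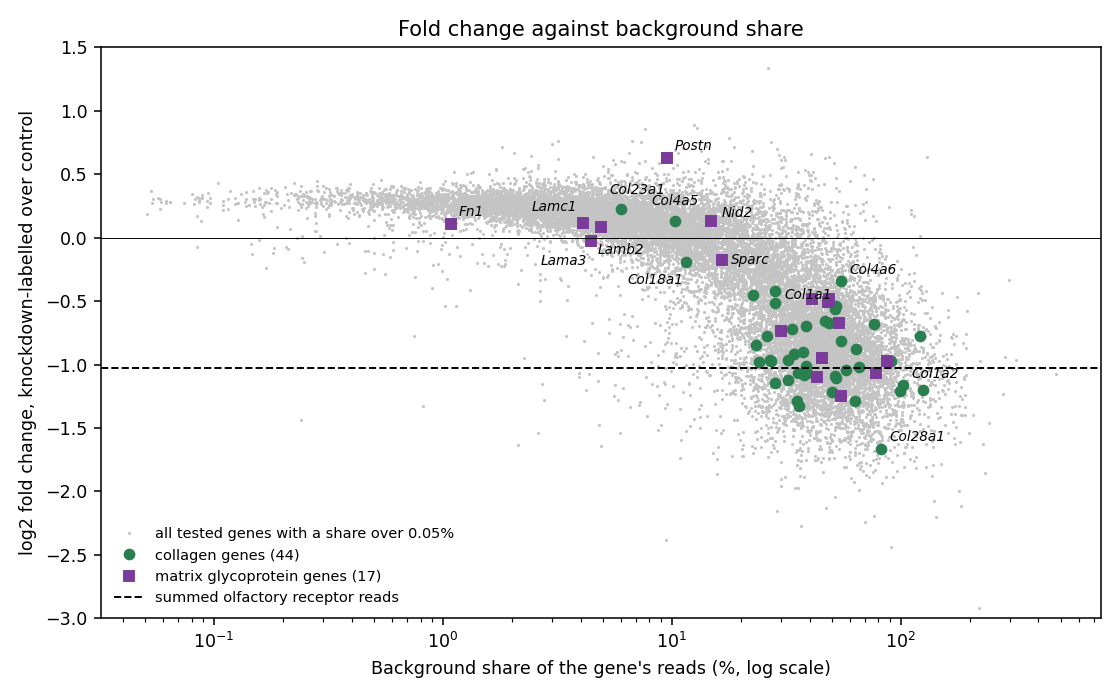
The log2 fold change of each gene (knockdown-labelled over control, TMM over all tested genes) against its background share (log scale), for collagen genes (circles), glycoprotein genes (squares) and all tested genes with a share over 0.05% (grey), with a dashed line at the ratio of summed olfactory receptor reads. The 10 genes under a 20% share lie between -0.19 and 0.63, and the 51 others lie between -1.67 and -0.34, within the grey cloud and around the dashed line.

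On that scale the summed olfactory receptor reads themselves had a log2 ratio of -1.03. The 4743 tested genes under a 5% share were on the other side of 0, with a median of 0.24. A second fit was therefore made for genes with a share under 20%: the expected background reads were subtracted from each count, the TMM factors came from genes with a share under 5%, and the same filter and test were run. The filter left 10119 genes, 10117 of them among the 10249 above. The fit called 0.998% of these genes higher and 3.93% lower. Of the 10 matrix genes it called Postn higher, Lama3 and Col18a1 lower, and 7 in neither direction. A value from this fit is a change relative to the genes with a share under 5%.

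Postn was the gene that separated the groups in both fits. Control replicates 1 to 5 held 120, 139, 178, 151 and 198 reads of it, and the knockdown-labelled libraries held between 230 and 316. Scaled with TMM, control replicates 1 to 5 were at 21.9, 28.9, 32.8, 27.8 and 35.4 CPM, and knockdown-labelled replicates 1 to 5 at 46.3, 43.9, 38.8, 44.6 and 53.8 CPM. Every knockdown-labelled library was above every control library. This was a log2 fold change of 0.63 (SE 0.09, edgeR adjusted p = 1.31e-06), with a 95% interval from 0.44 to 0.82. After background subtraction the means were 32.7 ± 6.47 and 47.9 ± 6.25 CPM and they gave a log2 fold change of 0.55 (SE 0.11, adjusted p = 0.00139). The groups still did not overlap, as was so for 1.3% of genes on the higher side and 3.67% on the lower side in that fit.

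The size of the rise depended on the scaling, and its direction did not. It was 0.39 (adjusted p = 0.00184) with TMM factors from genes under a 5% share and no subtraction, and within lanes 7 and 8 it was 0.65 and 0.66 on the first scale. With the background density as a covariate it was 0.58 and not called (adjusted p = 0.305), in a fit that called 2 of the 19263 genes higher. The Postn gene spans bases 54361109 to 54391037 of chromosome 3, on the plus strand of GRCm38. The union of its exons over all annotated transcripts is 8702 bases, and over its protein-coding transcripts it is 3290 bases. With the expected reads taken on the shorter length and the counted reads unchanged, its background share would be 3.61% in place of 9.55%.

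Fn1 gave a different sign in each fit. After background subtraction its control replicates 1 to 5 were at 556, 578, 587, 593 and 513 CPM. Its knockdown-labelled replicates 1 to 5 were at 476, 533, 453, 552 and 534 CPM, and the groups overlapped. Its log2 fold change was 0.11 (SE 0.06, adjusted p = 0.0985) with TMM over all tested genes and -0.15 (SE 0.06, adjusted p = 0.213) after subtraction, neither of them called. Per 1000000 reads of a library, 448 ± 20.8 (control) and 425 ± 34.7 (knockdown-labelled) were from Fn1 (exact permutation p = 0.214).

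Of the laminin chains under a 20% share, Lama3 was called lower relative to the genes under a 5% share, and Lamc1 and Lamb2 were not. After subtraction, control replicates 1 to 5 had Lama3 at 118, 130.0, 123, 145 and 119 CPM, and knockdown-labelled replicates 1 to 5 had it at 100.3, 109.8, 113, 99.5 and 108 CPM. All 5 knockdown-labelled libraries were below all 5 control libraries. This was a log2 fold change of -0.26 (SE 0.05, edgeR adjusted p = 0.00105), with a 95% interval from -0.36 to -0.15. With TMM over all tested genes it was -0.03 (SE 0.06, adjusted p = 0.734) and the groups overlapped, so the call came with the scaling: with the second scaling and no subtraction it was -0.27. In lane 7 alone it was -0.19 and not called (adjusted p = 0.136). Lamc1 was at 102 ± 5.93 and 94.3 ± 6.18 CPM after subtraction, and Lamb2 at 62.1 ± 6.59 and 56.4 ± 8.95 CPM. Their log2 fold changes were -0.11 (SE 0.06, adjusted p = 0.327) and -0.13 (SE 0.09, adjusted p = 0.452), and the groups overlapped for both.

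**Figure D3:**
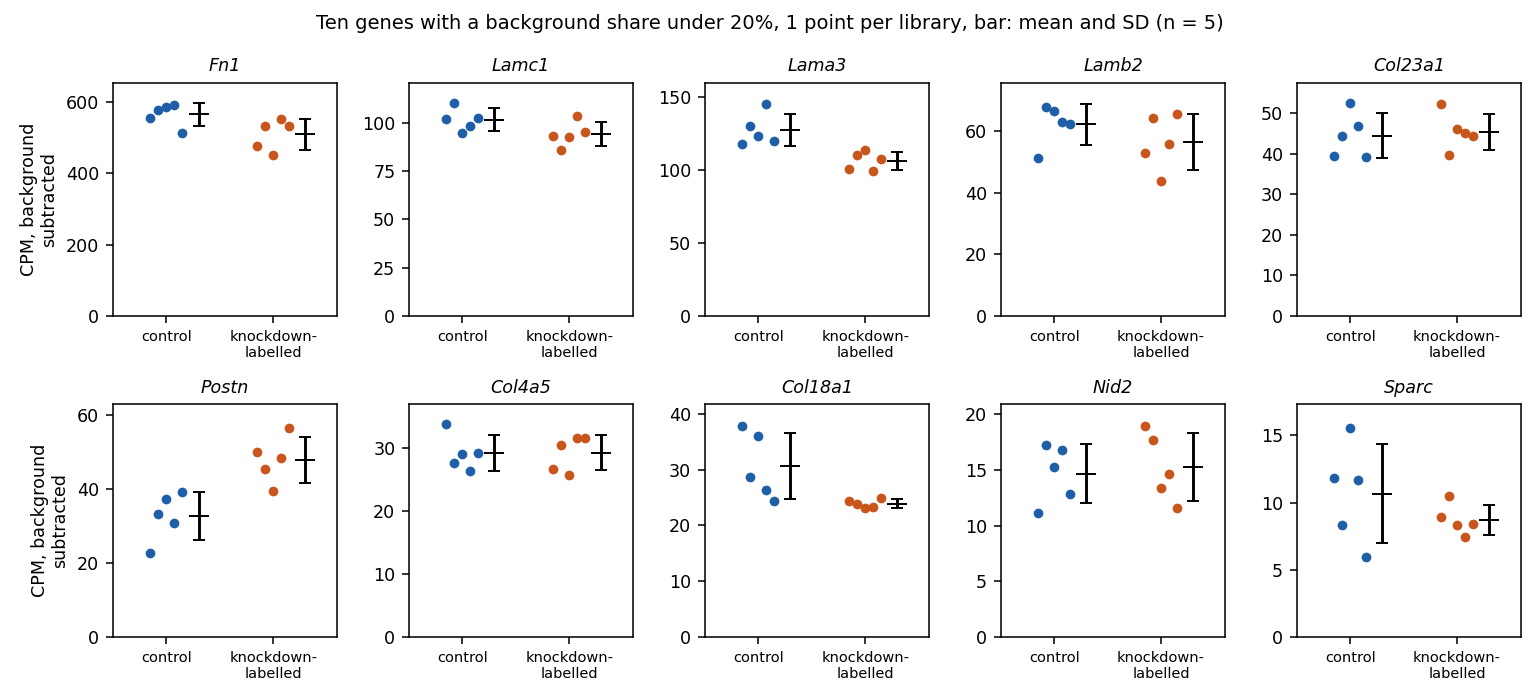
Level after background subtraction (CPM, each panel with its own axis from 0) of the 10 genes with a share under 20%, with 1 point per library and the mean and SD of each group (n = 5). Postn is higher in all 5 knockdown-labelled libraries, Lama3 is lower in all 5, and the other 8 genes overlap between groups.

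Col18a1 fell after subtraction and varied more in the control than in the knockdown-labelled libraries. Control replicates 1 to 5 had it at 37.8, 28.6, 36.0, 26.4 and 24.3 CPM, and knockdown-labelled replicates 1 to 5 at 24.4, 23.8, 23.1, 23.3 and 24.9 CPM. Control replicates 1 and 3 were the highest, and control replicate 5 lay within the other group. Its log2 fold change was -0.36 (SE 0.11, edgeR adjusted p = 0.0360), and -0.19 (adjusted p = 0.0935) with TMM over all tested genes. The call did not hold without control replicate 1 (-0.27, adjusted p = 0.181) or 3 (-0.29, adjusted p = 0.155), nor without knockdown-labelled replicate 2 (-0.36), 3 (-0.35), 4 (-0.35) or 5 (-0.38), and in lane 8 alone the value was -0.07.

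Col23a1 was called higher with TMM over all tested genes, at 36.3 ± 3.75 against 42.4 ± 3.55 CPM (log2 fold change 0.22, SE 0.08, edgeR adjusted p = 0.0195). After subtraction it was at 44.4 ± 5.53 against 45.4 ± 4.47 CPM, with a log2 fold change of 0.03 (95% interval -0.14 to 0.20, adjusted p = 0.900). Its libraries overlapped in both fits.

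Col4a5, Nid2 and Sparc were called in neither fit. Col4a5 was at 29.2 ± 2.80 against 29.3 ± 2.78 CPM after subtraction, and the 95% interval of its log2 fold change ran from -0.21 to 0.20. The interval of Nid2 ran from -0.24 to 0.36 and that of Sparc from -0.67 to 0.09, the widest of the 10 genes. Sparc was counted at only 36 to 74 reads per control library and 44 to 61 per knockdown-labelled library. Nid2 shares 437 exon bases (8.45%) with Rtraf on the opposite strand, and the counting's strand setting is not given in the sources used here.

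**Figure D4:**
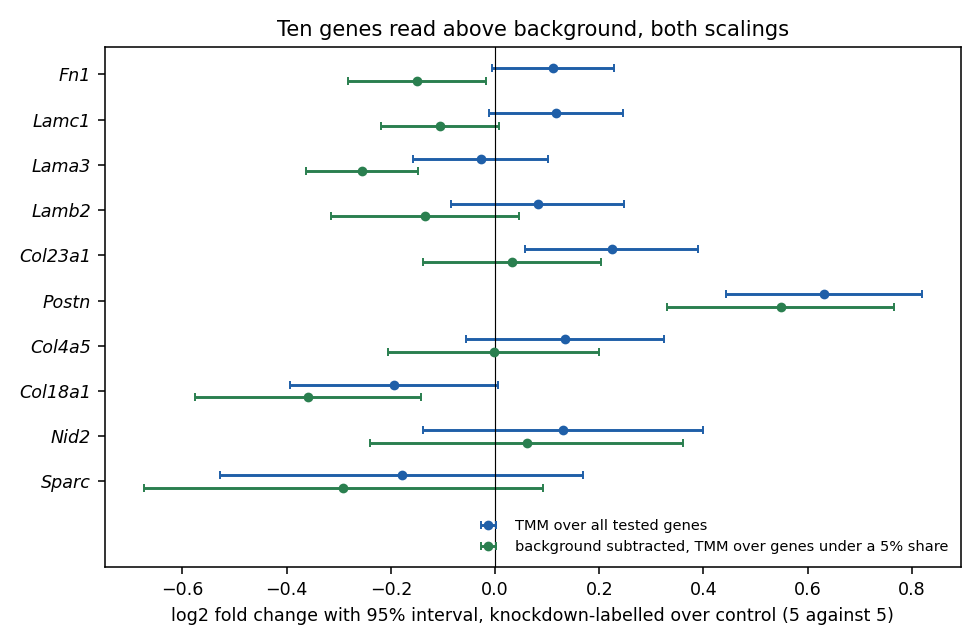
Log2 fold change with its 95% interval (knockdown-labelled over control, 5 against 5) of the 10 genes in both fits. The interval of Postn lies above 0 in both fits, those of Lama3, Col18a1 and Fn1 lie below 0 after background subtraction and hold 0 before it, and Fn1 was not called. The point values of Fn1, Lamc1, Lamb2 and Col4a5 pass from above to below 0, and the intervals of the last 3 of these hold 0 in both fits.

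The 51 genes of the band, taken as a sum, were lower in the knockdown-labelled libraries. Together they took 561 ± 124 of every 1000000 reads with the control gapmers and 265 ± 57.7 with the knockdown label (2.11 times), while the olfactory receptor level was 2.33 times higher in the control. After removal of the reads that density predicts, 297 ± 59.9 and 152 ± 28.6 were left (1.95 times). For the 10 genes under a 20% share 795 ± 27.7 and 776 ± 43.2 were left. The band's median log2 fold change was -0.96. The 95% interval of the fold change held the olfactory ratio of -1.03 for 40 of the 51 genes, lay above it for 11 and below it for 0. That ratio was used without its own spread, and the same count was not made over all tested genes. Between shares of 20 and 50% the median was -0.91 (28 of 29 called lower), against -0.69 for all 5592 tested genes in that range (55.4% called lower). Above 50% it was -1.03 (20 of 22 called lower), against -0.95 for all 3422 tested genes in that range (74.4%).

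Within the band the largest falls were those of Col28a1 (log2 fold change -1.67, SE 0.35), a minor beaded-filament collagen, and Col5a1 (-1.33, SE 0.18), a chain that nucleates fibrils. Col25a1 (-1.29, SE 0.21) and Col17a1 (-1.28, SE 0.28), both membrane-spanning collagens, followed. Col28a1 was counted at 12 to 26 reads per control library and 2 to 9 per knockdown-labelled library, with a share of 82.5%. The smallest changes were those of Col4a6 (-0.34, SE 0.23, adjusted p = 0.194), Col15a1 (-0.42, SE 0.18, adjusted p = 0.0457), Col11a2 (-0.45, SE 0.15, adjusted p = 0.00898) and Thbs1 (-0.48, SE 0.25, adjusted p = 0.0942). Thbs1 encodes a matricellular protein bound by CD36 and CD47. These 4 were among the 11 genes whose interval lay above the olfactory ratio, with Col1a1, Col27a1, Hspg2, Tnc, Vcan, Col4a2 and Lama5. Col15a1 lost its call without control replicate 1, 2 or 3 or knockdown-labelled replicate 2, 3 or 5 (-0.21 to -0.41). Col11a2 lost it without knockdown-labelled replicate 2 (-0.32), and Thbs1 gained one without knockdown-labelled replicate 4 (-0.58) or 5 (-0.70).

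Enzymes that fold, cross-link and trim collagen lay on both sides of the 20% line. Of 32 listed genes 12 had a share under 20%, and 6 were called higher and 12 lower (22.9% and 31.3% of all tested genes). All 6 rises had a share under 20% and 11 of the 12 falls a share of at least 20%. P4ha1 (log2 fold change 0.31, SE 0.06) and P4hb (0.28, SE 0.06), subunits of the prolyl 4-hydroxylase, rose. So did Mia3 (0.29, SE 0.06), which loads procollagen for export, and Colgalt1 (0.27, SE 0.06), which adds galactose to hydroxylysine. After background subtraction 0 of the 12 tested were called, and these 4 lay between 0.01 and 0.05. Adamts2, the procollagen N-proteinase (-1.30, SE 0.24, share 70.0%), and the cross-linking enzyme gene Loxl2 (-1.11, SE 0.27, share 50.9%) were called lower. Serpinh1, the collagen chaperone HSP47, had a share of 38.3%; it is named here after its value was seen.

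Of 27 listed genes of matrix receptors, 15 had a share under 20%, 13 were called higher and 10 lower (22.9% and 31.3% of all tested genes, and 43.0% and 3.80% of those under a 20% share), and the 13 rises all had a share under 20% and the 10 falls all a share of at least 20%. The scavenger receptor gene Cd36, which binds thrombospondin and collagen, was at 681 ± 36.4 and 876 ± 41.8 CPM (log2 fold change 0.36, SE 0.06). Cd47, a thrombospondin receptor (0.37), the laminin-binding integrin chain gene Itga6 (0.34), the integrin beta chain genes Itgb1 (0.31) and Itgb5 (0.30) and the dystroglycan gene Dag1 (0.30) also rose, each with SE 0.06. After subtraction, in the fit that called 0.998% of genes higher, Cd36 was the single gene called of 15 (0.09, SE 0.03, edgeR adjusted p = 0.0410), and the other 5 lay between 0.04 and 0.12. Cd36 lost that call in 7 of the 10 fits that left out a library, with values of 0.08 to 0.11 over all 10.

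Of 46 listed genes of other matrix proteins 10 had a share under 20%, 41 were tested, and 4 were called higher and 27 lower (22.9% and 31.3% of all tested genes). The 4 rises had a share under 20% and the 27 falls a share of at least 20%. Spp1, which encodes the secreted phosphoprotein osteopontin, was at 9519 ± 1013 and 11421 ± 395 CPM (log2 fold change 0.26, SE 0.06) and had more reads than any of the 61 genes. Sparcl1 (0.31, SE 0.09), Emilin2 (0.22, SE 0.08) and the brain proteoglycan gene Ncan (0.20, SE 0.07) also rose. The laminin chain genes Lamc3 (log2 fold change -1.31, SE 0.24) and Lama1 (-1.13, SE 0.21) fell, with Smoc2 (-1.29, SE 0.21), Thbs2 (-1.18, SE 0.22) and Ltbp1 (-0.92, SE 0.17). Their shares were 39.9 to 53.6%. After subtraction 0 of the 10 tested were called, with Spp1 at -0.01.

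Most of the listed markers of fibroblasts, mural cells and endothelium had a share of at least 20%, while 5 of 9 astrocyte markers had a share under it. Of 8 microglial markers 7 had a share under 20%, with Cx3cr1 at 191 ± 7.68 and 234 ± 11.0 CPM and Csf1r at 586 ± 23.2 and 720.0 ± 49.0 CPM, while P2ry12 was low, at 11.4 ± 2.39 and 14.3 ± 0.991 CPM. With TMM over all tested genes these 7 were called higher, as were 43.0% of tested genes under a 20% share. After background subtraction 0 of the 7 were called, with a median log2 fold change of 0.03. Of 14 fibroblast markers 0 had a share under 20%. The defining ones were at shares of 49.6% (Pdgfra), 202% (Dcn) and 130.2% (Lum), and the summed level was 43.2 to 65.7 CPM in the control and 24.0 to 37.3 CPM in the knockdown-labelled libraries. Of 10 mural markers 1 (Cspg4) and of 8 endothelial markers 1 (Flt1) had a share under 20%, while the first markers Rgs5 (65.8%), Kcnj8 (54.5%), Notch3 (47.8%), Cldn5 (125%), Cdh5 (27.1%) and Pecam1 (34.0%) did not. Summed mural levels were 101 to 138 CPM against 68.6 to 89.6 CPM, and endothelial levels were 156 to 179 CPM against 152 to 164 CPM. Flt1 had a share under 5% and was called higher, while after subtraction its log2 fold change was -0.07 and not called.

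Astrocyte markers had a share under 20% in 5 of 9 cases. Gfap was at 52.5 ± 4.61 and 65.4 ± 10.1 CPM, Aqp4 at 27.8 ± 3.13 and 33.6 ± 2.68 CPM and Aldh1l1 at 29.9 ± 1.82 and 30.9 ± 3.47 CPM. Slc1a3, also under a 20% share, went the other way, at 24.9 ± 4.21 and 19.9 ± 1.61 CPM, as did Slc1a2 (share 29.9%) at 20.98 ± 1.85 and 15.5 ± 2.25 CPM. Of 8 tested astrocyte markers 2 were called higher (Gfap and Aqp4) and 2 lower (Slc1a3 and Slc1a2). The rates over all tested genes were 22.9% and 31.3%. After subtraction, in the fit that called 3.93% of genes lower, Slc1a3 was the single gene called of 5 (lower, log2 fold change -0.46, edgeR adjusted p = 0.0115). The summed astrocyte level was 171 to 190.5 CPM in the control and 162 to 198 CPM in the knockdown-labelled libraries. The part of these or the other cell types in the levels of Postn and the laminin chains was not tested. Of 6 border macrophage markers 2 had a share under 20%, Mrc1 (596 ± 51.6 and 739 ± 49.3 CPM) and Pf4 (13.9 ± 1.73 and 18 ± 4.96 CPM), and Lyve1 had a share of 98.2%. Mrc1 and Pf4 were called higher with TMM over all tested genes, as were 43.0% of tested genes under that share. After subtraction 0 of these 2 were called. Of 8 oligodendrocyte lineage markers 1, Mbp (8.57%), and of 7 neuronal markers 0 had a share under 20%. The levels of Rbfox3 (45.4%), Snap25 (95.3%) and Syt1 (64.0%) were in the band. The 7 fibroblast, 7 mural, 5 endothelial and 5 neuronal markers called lower all had a share of at least 20%. Of all tested genes with such a share 62.6% were called lower. In bulk RNA, fewer cells of a type and less RNA per cell cannot be told apart.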

How the data were processed

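Libraries of total RNA were made with a strand-marking kit for low input (SMARTer Pico), per the labels' protocols. The submitters' processing notes name bcl2fastq and the builds GRCm38 and mm10. How reads were aligned and counted, with which annotation and strand setting, is not given in the sources used here. Each library had 1 deposited table of raw read counts, with 55563 entries, and the 92 ERCC spike-ins among them were dropped. Gene names, coordinates and exon lengths were those of GENCODE M21, which matched 55230 genes. The 241 unmatched genes held 0.0107% of reads. Exons of 21 of the 61 genes overlap another gene, over 5% of their length for Fbn1, Nid2, Col9a3 and Col4a3.

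Genes were filtered with filterByExpr, scaled with TMM and tested with edgeR 4.0.16 (glmQLFit robust, glmQLFTest, group as the only term, R 4.3.3) with Benjamini-Hochberg adjustment. RPKM used library totals and the union of exons, and CPM the TMM-scaled totals of the tested genes. After subtraction, CPM used the TMM-scaled totals of the subtracted reads of genes with a share under 5%. Background shares, the subtraction and the second fit were made as the results describe. The exact permutation tests ran over every split of 5 against 5 libraries. The code was tested on simulated data. Alternatives were DESeq2 1.42.0, upper-quartile scaling, library totals, TMM factors from genes under a 5% share, no filter and a stricter one (5 CPM in 5 libraries), limma-voom (limma 3.58.1), a replicate block, lane or background density as a covariate, each lane alone, each library left out and other background densities. The GC-near density and the exons of protein-coding transcripts were added after the data were seen.

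The 61 genes and all gene and marker lists were chosen with earlier results of these data known. By the rule, the text names all of the 61 genes under a 20% share, the 4 highest and 4 lowest fold changes among the others, the 2 highest and 2 lowest shares among the others with at least 10 reads, up to 6 genes per pathway list with the smallest p and any called after subtraction, and the first 3 markers per cell type. A few genes that the rule would name are not reported here. Other names serve to complete a family or a count and were chosen after their values were seen. Promoter sequences were credited to RefSeq by symbol, and 15 of the 61 genes had none in the table used. The figures were drawn with matplotlib 3.10.9 in Python 3.11.15.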

Additional observations from a re-analysis of the deposited data

Results flagged for a closer look

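Col28a1 was at 0.345 CPM in knockdown-labelled replicate 2, against 1.24 to 1.52 CPM in the other 4 knockdown-labelled libraries. The gap to the nearest library was 0.761 of the range of the group, above Dixon's critical value of 0.71 for 5 samples. It was the single value to pass among 42 groups of 5 libraries checked (21 genes in both groups), and chance passes about 1 group in 20. The library held 2 reads of the gene. The log2 fold change of Col28a1 was -1.40 without it and -1.67 with it, called both times.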

How the results depend on the processing

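The numbers of the 61 genes called lower (48) and higher (2) were recomputed under each alternative, and the cause of a change was not tested unless a smaller number of libraries or genes shows it. The count lower was 0 with the background density as a covariate and 1 in lane 8 alone (2 libraries against 2), where 0 and 1 were called higher. The count higher was 4 with DESeq2 (Fn1 and Lamc1 added) or no filter, and 1 with upper-quartile scaling, library totals, TMM factors from genes under a 5% share or the stricter filter (50 genes tested). Leaving out 1 library gave 41 to 48 lower and 2 to 3 higher. After subtraction, the count lower (2 of 10) was 11 of 20 with the vomeronasal density, 1 of 7 with the GC-near density, 1 of 4 (with 0 higher) for genes under a 5% share, 1 in lane 8 alone and 1 to 3 without 1 library. The number of genes under a 20% share (10) was 20 with the vomeronasal and 5 with the keratin density.

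Replicate numbers did not pair the libraries (correlations of same-numbered deviations -0.10, -0.21, 0.013, 0.15 and 0.16). With a replicate block 47 genes were lower and 2 higher, and after subtraction 3 lower (Fn1 added, adjusted p = 0.0492) and 1 higher.

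Over all genes, calls higher and lower (4418 and 6033) were 1685 and 7195 for upper-quartile scaling, 994 and 7653 for library totals, 331 and 8543 with TMM factors from genes under a 5% share, 2057 and 2239 with the stricter filter, 2 and 28 with the density covariate and 67 and 153 in lane 8. After subtraction (101 and 398) they were 281 and 1311 with the vomeronasal density, 30 and 118 with the GC-near density, 46 and 53 for genes under a 5% share, 205 and 1238 without subtraction, 36 and 230 in lane 7 and 4 and 22 in lane 8.

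Log2 fold changes that changed sign were these. Fn1 was at -0.035, Lamc1 at -0.029, Lamb2 at -0.064, Col4a5 at -0.011 and Nid2 at -0.016 with upper-quartile scaling. With library totals the same genes were at -0.078, -0.071, -0.11, -0.053 and -0.060. They were at -0.13, -0.13, -0.16, -0.11 and -0.12 with TMM factors from genes under a 5% share, where Col23a1 was at -0.020. With the stricter filter Fn1 was at -0.0073, Lamc1 at -0.0013 and Lamb2 at -0.036. Lama3 was at 0.043 with DESeq2, 0.10 without a filter, 0.085 in lane 7 and -0.045 to 0.025 without 1 library. With the density covariate Col25a1 was at 0.16, Col11a2 at 0.27, Col15a1 at 0.67, Col9a3 at 0.11, Itgb1 at -0.030, Lamc3 at 0.10, Ltbp1 at 0.17 and Lama1 at 0.030. In lane 8 Col18a1 was at 0.050, Nid2 at -0.071, Col15a1 at 0.024 and Col4a6 at 0.033. After subtraction, Col4a5 was at 0.11 and P4hb at -0.0054 with the GC-near density, and Col23a1 at -0.020 and Nid2 at -0.11 with the scaling alone. In the same fit Mia3 was at -0.033, Colgalt1 at -0.028 and Itgb5 at -0.0039 in lane 7, and Col4a5 at 0.18 and Nid2 at -0.17 in lane 8. Without 1 library, Col23a1 ran from -0.017 to 0.10, Col4a5 from -0.037 to 0.056, Nid2 from -0.026 to 0.15 and Colgalt1 from -0.017 to 0.034. Of the other values of single genes, 1015 kept direction and side of the threshold, 98 lost a call and 33 gained one; 50 of the lost calls came with the density covariate or lane 8 alone. Col5a2 lost its call without control replicate 2 (-0.66) or 3 (-0.68) or knockdown-labelled replicate 2 (-0.64) or 3 (-0.67).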
